A study of Mus musculus with 9 samples.

Results

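Collagen genes were taken as every gene whose symbol is Col, a number, a and a number. The arrays held 42 of them, with 82 probe sets, among 18193 named genes, and the probe set that was brightest on average stood for each gene. By the type of structure their proteins build, 11 were put in the fibrillar class, 8 in the basement membrane class, 9 among the FACITs (collagens that sit on the surface of fibrils) and 14 in a remaining class. Col21a1, Col6a6 and Col28a1, which also belong to these classes, were not analysed here. The arrays came from mouse hearts at 2 months of age, with 3 arrays in each of 3 groups. The first group was right atrium of Myh6-cre; COUP-TFIIflox/flox mice, called mutant atrium. The others were ventricle and right atrium of COUP-TFIIflox/flox mice without Cre. All groups were on a C57BL/6 background and carried floxed Nr2f2, which encodes the nuclear receptor COUP-TFII, and only the mutants carried Cre, so an effect of Cre and one of the deletion cannot be told apart. The Myh6 promoter drives Cre in cardiomyocytes. The labels call the replicates biological and do not say whether an array held RNA of a single animal or of several.

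Collagens are secreted proteins whose chains wind into a triple helix. The fibrillar types give tissue its tensile strength, and type I and type III fibrils form the mesh around heart muscle. Type IV collagens form the sheet of the basement membrane that surrounds cardiomyocytes and vessels. Fibroblasts are known as the main source of fibrillar collagen in the heart, while endothelial, smooth muscle and muscle cells also make basement membrane chains. In whole tissue, fewer cells of a type and less RNA per cell cannot be told apart.

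Values are log2 RMA intensities. Differences are log2 ratios ± SE. They were fitted with limma to the 9 arrays at once, with p-values adjusted over all 18193 genes by the Benjamini-Hochberg method, and a gene was called higher or lower at an adjusted p under 0.05. Probe sets differ in brightness for equal amounts of RNA, so levels are compared between groups and not between genes. The 39 olfactory receptor genes on the arrays, which heart muscle is not known to use, served as a scale for background, with a 95th percentile of 5.84. By group means, 25 collagens lay above it in all groups, 4 in some and 13 in none. Nr2f2 itself had 6.82, 6.62 and 6.82 in mutant atria, 5.96, 5.34 and 5.74 in ventricles and 7.53, 7.66 and 7.29 in control atria, and mutant over control atrium it fell by 0.74 ± 0.15 (adjusted p = 0.0109). Arrays of 1 group correlated at 0.994 to 0.997 across genes, which are not independent replicates. The Y-linked genes averaged 3.73, 8.84 and 8.84 in the mutant arrays and 3.78 to 3.85 in the ventricles. In the control atria they averaged 5.22, 8.81 and 8.33. Xist, an RNA of female cells, had 12.48, 6.73 and 6.48 in mutant atria. It had 11.8 to 11.87 in ventricles and 12.73, 8.55 and 10.91 in control atria. Control atrium replicates 2 and 3 thus had high Y-linked levels with Xist above that of mutant replicates 2 and 3. The groups so differed in Y-linked and Xist level, and sex and chamber cannot be fully told apart. Liver transcripts were present in the control atria, where the 10 hepatocyte genes averaged 10.27, 9.49 and 7.68, against at most 5.56 in mutant atria and 5.42 in ventricles.

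Mutant and control atria differed in a share of collagens near that of all genes. Mutant against control atria, 5 of 42 collagens rose (7.76% of all genes rose) and 1 fell (9.79% of all genes fell), so 14.3% of collagens passed, against 17.5% of all genes. Col14a1, a FACIT, rose 1.59-fold, the basement membrane chains Col4a3 and Col4a4 rose 1.58-fold and 1.45-fold, and the fibrillar Col27a1 rose 1.33-fold. Col6a4 was called as well, but lay within the olfactory receptor range in all groups. Col13a1, a transmembrane collagen, fell 1.91-fold. None of the fibril chains that make up most heart collagen, Col1a1, Col1a2 and Col3a1, passed the test. The median log2 difference over the 42 genes was 0.15, against 0.03 over all genes. Mutant arrays lay wholly above the control atria for 8 collagens (18.9% of all genes did) and wholly below for 2 (18.9%).

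These calls rest on few arrays. The number of risen collagens was 2 without control atrium replicate 1 or 2, 3 without mutant replicate 2 or 3 or ventricle replicate 2, and 6 without mutant replicate 1 or control atrium replicate 3. It was 0, with 0 fallen, when the mean of the hepatocyte genes or the difference between 3' and 5' Actb control probe sets was a covariate. Both covariates move with the groups. Over all genes 68 passed with the hepatocyte and 895 with the Actb covariate, against 3192 with neither, so the loss is not particular to collagens. The median SE of all genes was 0.216 with the hepatocyte and 0.116 with the Actb covariate, against 0.0879 with neither.

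More collagens passed between the chambers of the control heart, as did more genes in all. In control ventricle against control atrium 22 of 42 collagens passed (52.8% of all genes), 10 of them higher (29.2% of all genes) and 12 lower (23.6% of all genes). The share of collagens, 52.4%, was close to that of all genes. Lower in the ventricle were the fibril chains Col1a2, Col3a1 and Col5a2, the FACITs Col14a1 and Col16a1, the transmembrane Col13a1 and Col23a1, and 5 basement membrane collagens. Higher were the basement membrane chains Col4a1 and Col4a2, the vessel wall collagen Col8a1, Col27a1, Col5a3, Col20a1, Col22a1, Col26a1, Col6a4 and Col6a5. The median was 0.13, against 0.07 over all genes. Without control atrium replicate 1 only 6 were higher, and 12 were lower. With the hepatocyte covariate none was higher and Col1a2 and Col5a2 stayed lower. With the Actb covariate 1 was higher and 12 were lower.

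Set against ventricles, the mutant atria were mostly higher where a collagen passed. Mutant atrium over control ventricle, 12 collagens were higher (16% of all genes) and 4 lower (16.7% of all genes), with a median of 0.05 against -0.05 over all genes. In either direction 38.1% of collagens passed, against 32.7% of all genes. Col14a1 was 3.05-fold, Col4a4 2.66-fold, Col4a3 2.49-fold and Col1a2 2.19-fold higher in the mutant atria. Those lower were Col5a3, Col20a1, Col26a1 and Col6a5, by 0.28 to 0.45 on the log2 scale. The number of lower genes was 1 without mutant replicate 2 or 3 or without ventricle replicate 2 or 3, and 3 without any other array. Col20a1, Col6a5, Col16a1 and Col26a1 lost their call here in 6, 4, 3 and 3 of the 9 fits that leave out an array. These 3 comparisons share their samples in pairs, so a high or low array of 1 group moves both comparisons it enters.

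**Figure D1:**
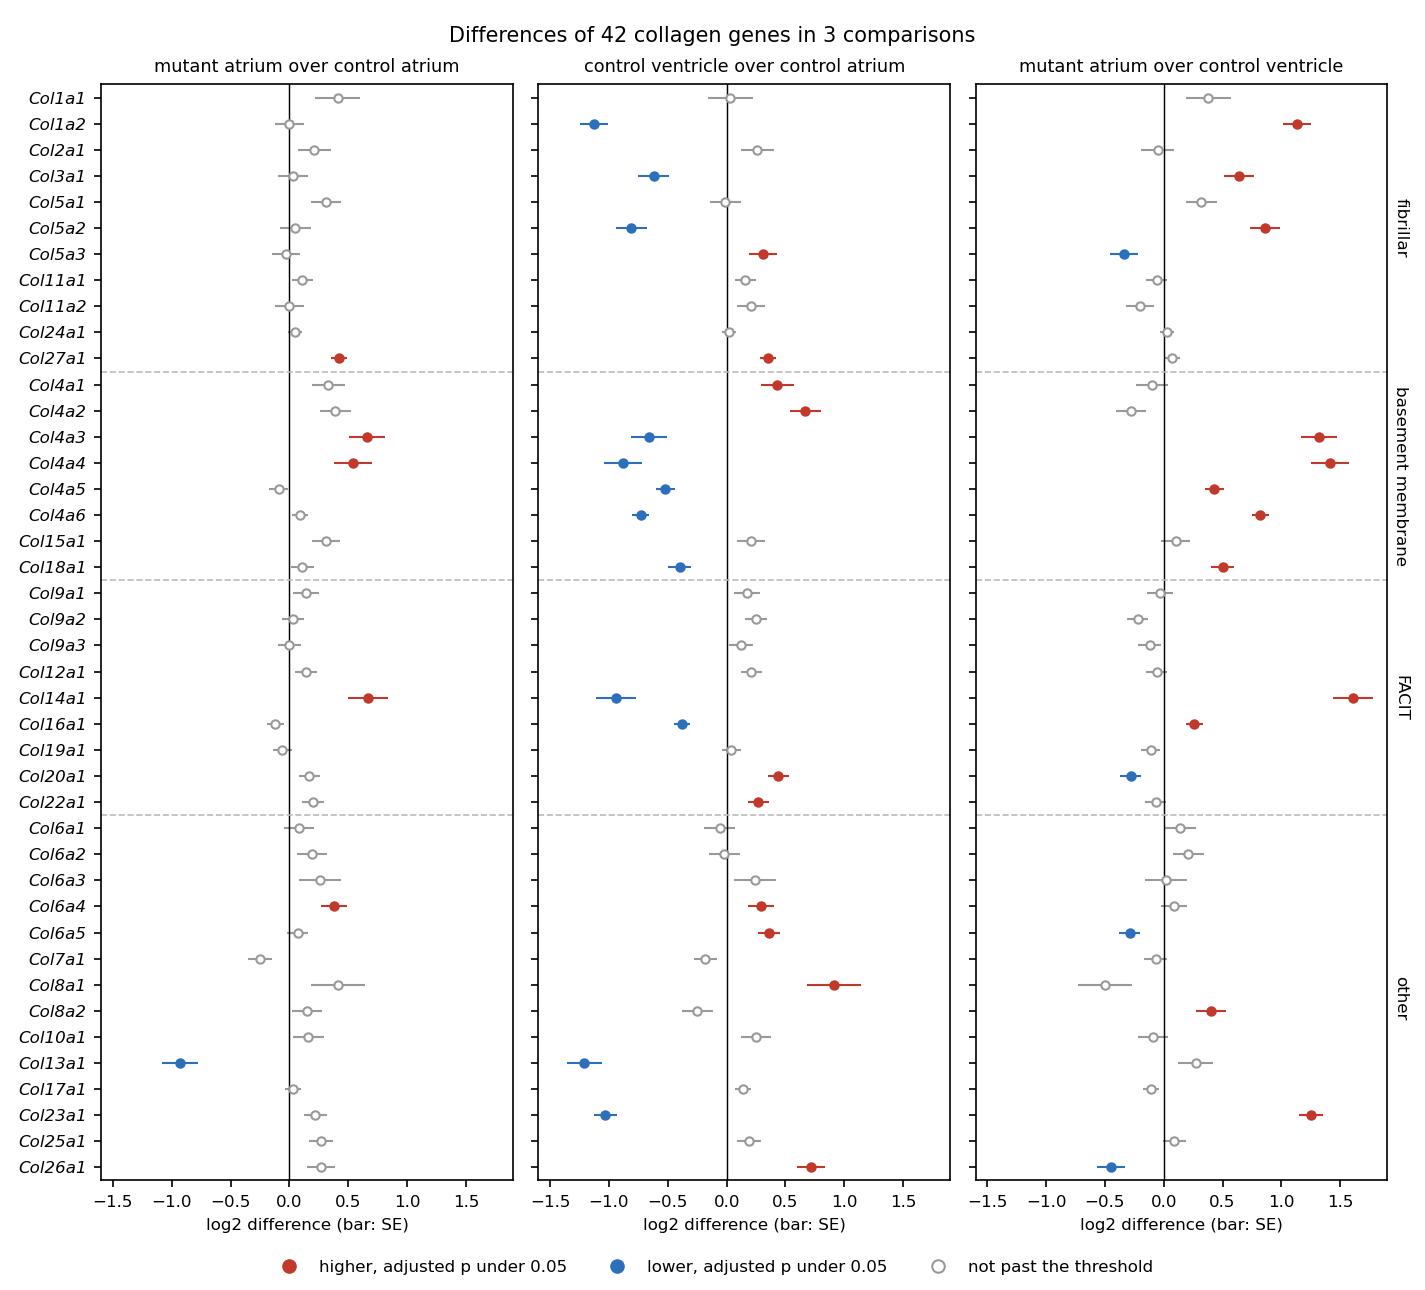
Log2 difference (points) and its SE (bars, 3 arrays per group) of each of the 42 collagen genes in the 3 comparisons, ordered by class, with genes past the adjusted p of 0.05 filled. In the left panel 6 points are filled and lie within 1 log2 unit of 0, while 22 are filled in the middle panel, where Col13a1 is lowest at -1.21 and Col8a1 highest at 0.91.

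The basement membrane class held type IV collagen, with 6 chains, and the related Col15a1 and Col18a1. Mutant against control atria 2 of the 8 genes rose (7.76% of all genes) and none fell (9.79%), with a median of 0.32. Ventricle against control atria 2 were higher (29.2% of all genes) and 5 lower (23.6%), with a median of -0.46. Mutant atria against ventricles 5 were higher (16% of all genes) and none lower (16.7%), with a median of 0.47. Type IV genes lie in pairs on opposite strands. They are known for this head-to-head order. The upstream sequences of 33 of the 42 collagens were matched in RefSeq (build GRCm38.p6). Those of the type IV chains other than Col4a3, which had no entry, are shown because the partners of each pair differed in the same direction between the chambers, and those of Col1a2 and Col3a1 because they carry the main heart fibrils and differed between the chambers. Each is the 250 bases before the annotated start, 5′ to 3′ on the gene's strand, with capitals for 4 motifs on either strand. These are the nuclear receptor half-site AGGTCA or TGACCT, the CCAAT box CCAAT or ATTGG, the GC box GGGCGG or CCGCCC, and the TATA box TATAAA or TTTATA.
Col4a1 (chr8:11312827-11313076, minus strand): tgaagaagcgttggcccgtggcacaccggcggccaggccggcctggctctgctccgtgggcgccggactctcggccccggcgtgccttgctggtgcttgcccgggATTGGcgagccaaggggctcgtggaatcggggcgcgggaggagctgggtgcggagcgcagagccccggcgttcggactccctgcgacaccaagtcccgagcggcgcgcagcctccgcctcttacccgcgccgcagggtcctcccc
Col4a2 (chr8:11312555-11312804, plus strand): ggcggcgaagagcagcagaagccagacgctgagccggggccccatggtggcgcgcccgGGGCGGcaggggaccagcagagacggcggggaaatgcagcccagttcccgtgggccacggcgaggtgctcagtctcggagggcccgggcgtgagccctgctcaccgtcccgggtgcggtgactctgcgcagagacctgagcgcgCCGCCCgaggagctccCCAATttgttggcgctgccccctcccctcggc
Col4a4 (chr1:82586850-82587099, minus strand): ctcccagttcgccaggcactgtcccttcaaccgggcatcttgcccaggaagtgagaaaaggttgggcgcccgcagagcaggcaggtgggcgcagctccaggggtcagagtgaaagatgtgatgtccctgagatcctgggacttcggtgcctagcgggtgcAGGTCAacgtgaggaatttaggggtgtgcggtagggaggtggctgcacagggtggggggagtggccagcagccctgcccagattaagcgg
Col4a5 (chrX:141475169-141475418, plus strand): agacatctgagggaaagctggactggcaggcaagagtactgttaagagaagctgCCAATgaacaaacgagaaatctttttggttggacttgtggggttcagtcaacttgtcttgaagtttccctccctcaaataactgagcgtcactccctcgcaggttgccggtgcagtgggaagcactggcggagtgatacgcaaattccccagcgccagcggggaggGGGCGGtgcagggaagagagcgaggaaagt
Col4a6 (chrX:141474077-141474326, minus strand): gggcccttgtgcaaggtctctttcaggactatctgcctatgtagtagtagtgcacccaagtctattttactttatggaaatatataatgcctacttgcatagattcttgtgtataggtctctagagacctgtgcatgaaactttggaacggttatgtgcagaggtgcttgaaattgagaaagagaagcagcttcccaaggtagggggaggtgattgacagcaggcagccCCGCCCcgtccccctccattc
Col1a2 (chr6:4505368-4505617, plus strand): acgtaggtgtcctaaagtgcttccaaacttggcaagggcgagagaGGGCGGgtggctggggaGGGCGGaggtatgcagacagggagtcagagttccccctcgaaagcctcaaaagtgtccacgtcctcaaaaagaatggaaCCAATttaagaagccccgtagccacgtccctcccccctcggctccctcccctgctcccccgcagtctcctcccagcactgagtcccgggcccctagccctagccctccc
Col3a1 (chr1:45311288-45311537, plus strand): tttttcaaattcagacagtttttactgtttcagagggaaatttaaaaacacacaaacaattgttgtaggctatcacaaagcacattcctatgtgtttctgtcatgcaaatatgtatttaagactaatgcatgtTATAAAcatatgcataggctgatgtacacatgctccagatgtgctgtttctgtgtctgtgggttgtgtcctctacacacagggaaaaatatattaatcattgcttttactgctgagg
The starts of Col4a1 and Col4a2 are 21 bases apart on opposite strands, and those of Col4a6 and Col4a5 1343 bases apart. As annotated, Col4a1 and Col4a2 overlap at their starts, so the window of each lies within the other gene. Of the genes shown, Col4a4 alone holds a nuclear receptor half-site in its window, 90 bases before its start. Such a half-site was in 8 of 36 collagen windows (22.2%) and in 14% of 32851 windows over all genes. Col4a2 holds 2 GC boxes and a CCAAT box, and Col4a1 a CCAAT box. The CCAAT box was in 33.8%, the GC box in 32.7% and the TATA box in 12.4% of all windows, and in 36.1%, 58.3% and 13.9% of the collagen windows. These matches describe letters and are not measured binding sites.

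Col4a1 and Col4a2, the chains found in nearly every basement membrane, were higher in the ventricle. Col4a1 had 11.13, 11.53 and 11.44 in mutant atria, 11.42, 11.35 and 11.61 in ventricles and 10.78, 11.09 and 11.22 in control atria. Col4a2 had 10.67, 11.02 and 10.86 in mutant atria, 11.03, 11.07 and 11.28 in ventricles and 10.21, 10.51 and 10.66 in control atria. All 3 ventricles lay above all control atria for both genes. The mutant atria overlapped both other groups for Col4a1, and lay between them without overlap for Col4a2. The ventricle differed from the control atrium by 0.43 ± 0.14 (adjusted p = 0.0238) for Col4a1 and 0.67 ± 0.13 (adjusted p = 0.00227) for Col4a2. The call of Col4a1 was lost without control atrium replicate 1 (0.31, limma adjusted p = 0.085) or ventricle replicate 3 (0.36, adjusted p = 0.0805). Mutant over control atrium, the differences were 0.33 ± 0.14 (adjusted p = 0.124) and 0.39 ± 0.13 (adjusted p = 0.0685), and neither passed. Col4a2 did pass there with the replicate block, array weights or a Y-linked covariate, and without mutant replicate 1 or control atrium replicate 3, with limma adjusted p-values of 0.0232 to 0.0494. With the hepatocyte covariate the mutant difference changed sign for both genes, at -0.22 for Col4a1 and -0.19 for Col4a2, with limma adjusted p-values of 0.886 and 0.892.

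The other 4 type IV chains ran the opposite way between the chambers. Col4a3 and Col4a4, known from the filtering membrane of the kidney and from its inherited disease Alport syndrome, were lowest in the ventricle and highest in the mutant atria. Col4a3 had 7.80, 7.40 and 7.50 in mutant atria, 6.00, 6.16 and 6.57 in ventricles and 6.82, 6.97 and 6.93 in control atria. Col4a4 had 9.37, 8.65 and 8.84 in mutant atria, 7.46, 7.49 and 7.68 in ventricles and 8.47, 8.44 and 8.34 in control atria. The 3 groups did not overlap for either gene, and mutant replicate 1 was the highest of all arrays for both. Mutant over control atrium, Col4a3 rose by 0.66 ± 0.15 (adjusted p = 0.0152) and Col4a4 by 0.54 ± 0.16 (adjusted p = 0.0449). Ventricle over control atrium, the differences were -0.66 ± 0.15 (adjusted p = 0.00477) and -0.88 ± 0.16 (adjusted p = 0.00148). The mutant atria exceeded the ventricles by 1.32 ± 0.15 (adjusted p = 0.000143) and 1.41 ± 0.16 (adjusted p = 0.000144). These calls were kept under all 22 alternative settings, though those that leave out control atria cannot change the size of these differences. Against the control atria the call of Col4a3 was lost without control atrium replicate 1 (0.62, limma adjusted p = 0.0568). That of Col4a4 was lost without any array other than mutant replicate 2, with adjusted p-values of 0.0514 to 0.104.

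Col4a5 and Col4a6 were lower in the ventricle, while neither passed in the mutant atria. Col4a5, the partner of Col4a3 and Col4a4 in the kidney membrane, had 10.59, 10.84 and 10.80 in mutant atria, 10.25, 10.34 and 10.36 in ventricles and 10.90, 10.88 and 10.74 in control atria. Col4a6, found with it around smooth muscle, had 6.64, 6.58 and 6.65 in mutant atria, 5.89, 5.80 and 5.70 in ventricles and 6.63, 6.45 and 6.50 in control atria. Ventricles lay below both atrial groups for both genes, for Col4a6 with a mean within the olfactory receptor range, and the atrial groups overlapped. The ventricle differed from the control atrium with a log2 difference of -0.52 ± 0.08 (adjusted p = 0.000635) and -0.73 ± 0.07 (adjusted p = 4.45e-05), and the mutant atrium from the ventricle by 0.43 ± 0.08 (adjusted p = 0.00325) and 0.82 ± 0.07 (adjusted p = 4.09e-05). Mutant over control atrium, the differences were -0.09 ± 0.08 (adjusted p = 0.455) and 0.09 ± 0.07 (adjusted p = 0.408). Both lie on the X chromosome. With the Y-linked covariate both stayed lower in the ventricle, where all arrays had a low Y-linked level.

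Col15a1 and Col18a1 are proteoglycans of the basement membrane zone, and Col18a1 is the source of the fragment endostatin. Col15a1 had 8.76, 9.25 and 8.94 in mutant atria, 8.85, 8.87 and 8.92 in ventricles and 8.64, 8.53 and 8.85 in control atria. It passed in none of the comparisons, with a difference of 0.31 ± 0.12 (adjusted p = 0.119) in mutant over control atrium. Col18a1 had 8.03, 8.17 and 7.95 in mutant atria, 7.48, 7.45 and 7.72 in ventricles and 7.94, 8.07 and 7.82 in control atria. It was lower in the ventricle than in the control atrium with a log2 difference of -0.40 ± 0.10 (adjusted p = 0.00808), a call lost with quantile normalisation (-0.24, limma adjusted p = 0.0604) or the Y-linked covariate (-0.37, adjusted p = 0.0612), and higher in the mutant atrium than in the ventricle by 0.50 ± 0.10 (adjusted p = 0.00366).

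**Figure D2:**
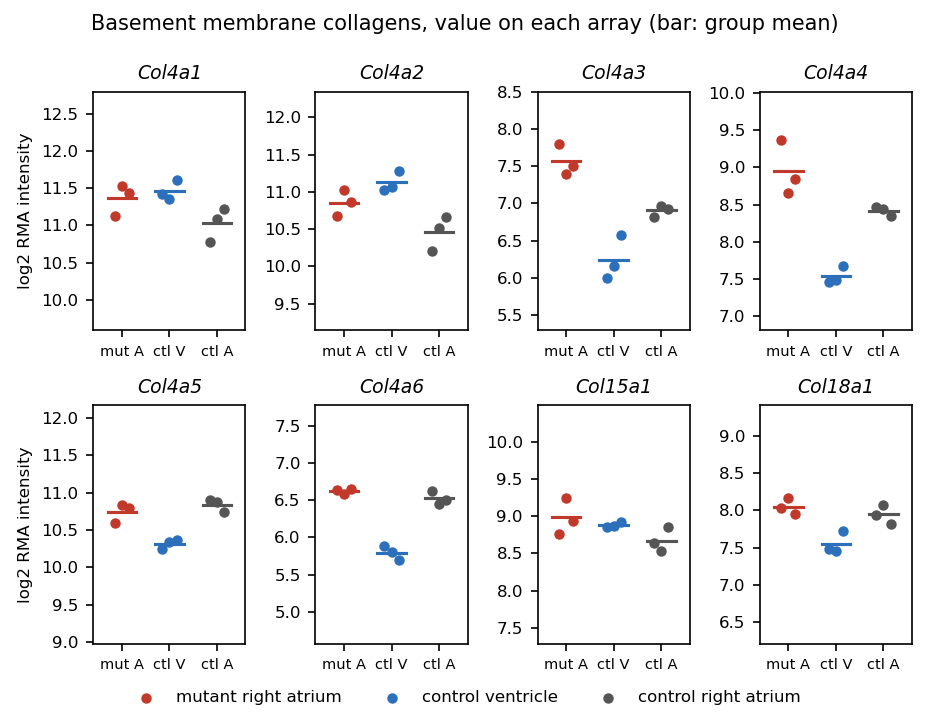
Log2 RMA intensity of the 8 basement membrane collagens on each array (points) with the group mean (bar), for mutant right atrium, control ventricle and control right atrium, every panel spanning the same log2 range. Ventricles lie above control atria for Col4a1 and Col4a2 and below them for Col4a3, Col4a4, Col4a5, Col4a6 and Col18a1, and the mutant atria lie highest for Col4a3 and Col4a4.

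Among the 11 fibrillar collagens 1 rose (7.76% of all genes) and none fell (9.79%) in mutant over control atrium, with a median of 0.05. In ventricle over control atrium 2 were higher (29.2% of all genes) and 3 lower (23.6%), with a median of 0.03. Col2a1, Col11a1, Col11a2 and Col24a1, known mainly from cartilage and bone, lay within the olfactory receptor range in all groups and passed in no comparison.

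Col1a2, Col3a1 and Col5a2 were lower in the ventricle and did not pass in mutant over control atrium. Col1a2, a chain of type I collagen, had 12.56, 12.90 and 12.79 in mutant atria, 11.51, 11.58 and 11.76 in ventricles and 12.56, 12.75 and 12.93 in control atria. Col3a1, the chain of type III collagen, had 12.97, 13.45 and 13.01 in mutant atria, 12.43, 12.51 and 12.57 in ventricles and 13.01, 13.08 and 13.27 in control atria. Col5a2, a chain of type V collagen, which starts and thins fibrils, had 9.97, 10.41 and 10.12 in mutant atria, 9.18, 9.34 and 9.40 in ventricles and 9.92, 10.14 and 10.27 in control atria. For these genes the ventricles lay below all atria, and the atrial groups overlapped. The ventricle was 2.19-fold lower than the control atrium for Col1a2 (-1.13 ± 0.12, adjusted p = 5.51e-05), 1.75-fold lower for Col5a2 (-0.81 ± 0.13, adjusted p = 0.000638) and 1.53-fold lower for Col3a1 (-0.62 ± 0.13, adjusted p = 0.00305). The mutant atria were higher than the ventricles by 1.13 ± 0.12 (adjusted p = 0.000103), 0.86 ± 0.13 (adjusted p = 0.00073) and 0.64 ± 0.13 (adjusted p = 0.00391) for the same genes in that order. Mutant over control atrium, the differences were 0.00 ± 0.12 (adjusted p = 0.985), 0.05 ± 0.13 (adjusted p = 0.812) and 0.03 ± 0.13 (adjusted p = 0.909). Col1a2 and Col5a2 were the collagens that kept their chamber call under all 22 alternative settings.

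Col1a1 and Col5a1, which join the same fibrils, gave no such difference with the probe sets used. Col1a1 had 8.84, 9.43 and 9.0 in mutant atria, 8.32, 8.80 and 9.02 in ventricles and 8.51, 8.70 and 8.84 in control atria. Col5a1 had 9.29, 9.60 and 9.34 in mutant atria, 8.83, 9.12 and 9.33 in ventricles and 8.99, 9.12 and 9.19 in control atria. The ventricles overlapped both atrial groups, with differences from the control atrium of 0.03 ± 0.19 (adjusted p = 0.914) and -0.01 ± 0.13 (adjusted p = 0.961). In mutant over control atrium they were 0.41 ± 0.19 (adjusted p = 0.18) and 0.31 ± 0.13 (adjusted p = 0.137). The other probe set of Col1a1 had 8.69 ± 0.25 in mutant atria, 7.86 ± 0.17 in ventricles and 8.41 ± 0.23 in control atria (SD, n = 3 arrays each). It did pass as lower in the ventricle than in the control atrium, with a log2 difference of -0.55 ± 0.15 (adjusted p = 0.0138) when all probe sets were tested, and as higher in mutant atria than in ventricles, by 0.83 ± 0.15 (adjusted p = 0.0027).

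Col27a1 and Col5a3 were higher in the ventricle. Col27a1, a fibrillar collagen of cartilage, had 8.06, 8.13 and 8.07 in mutant atria, 7.98, 7.97 and 8.12 in ventricles and 7.69, 7.57 and 7.76 in control atria. The control atria lay below all other arrays, and the mutant rise was 0.42 ± 0.07 (adjusted p = 0.00428), beside 0.35 ± 0.07 (adjusted p = 0.00283) in ventricle over control atrium. The mutant call was kept in all 9 fits that leave out an array. Its other probe set gave 0.21 ± 0.10 (adjusted p = 0.209) and -0.10 ± 0.10 (adjusted p = 0.444), so neither passed. Col5a3, a rarer chain of type V collagen, had 7.61, 7.60 and 7.39 in mutant atria, 7.74, 7.75 and 8.13 in ventricles and 7.59, 7.45 and 7.67 in control atria. It was higher in the ventricle than in the control atrium by 0.31 ± 0.12 (adjusted p = 0.0474), and lower in the mutant atrium than in the ventricle with a log2 difference of -0.34 ± 0.12 (adjusted p = 0.0473). These calls were kept in 10 and 7 of 22 alternative settings. The first was lost without mutant replicate 1 or 2, control atrium replicate 1 or 2 or ventricle replicate 3, and the second without any array but ventricle replicates 1 and 2, with limma adjusted p-values of up to 0.149 and 0.154.

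Of the 9 FACITs 1 rose (7.76% of all genes) and none fell (9.79%) in mutant over control atrium, with a median of 0.14. In the ventricle against the control atrium 2 were higher (29.2% of all genes) and 2 lower (23.6%), with a median of 0.17. Col14a1, which binds type I fibrils beside the proteoglycan decorin, set all 3 groups apart with the probe set used. It had 10.47, 10.17 and 10.07 in mutant atria, 8.72, 8.29 and 8.88 in ventricles and 9.83, 9.39 and 9.49 in control atria. The groups did not overlap, with mutant atria highest and ventricles lowest. The rise in mutant over control atrium was 0.67 ± 0.17 (adjusted p = 0.0269). The ventricle was lower than the control atrium with a log2 difference of -0.94 ± 0.17 (adjusted p = 0.00152) and the mutant atrium higher than the ventricle by 1.61 ± 0.17 (adjusted p = 0.000107). The mutant call against control atria was lost without mutant replicate 1 or 2 or control atrium replicate 2 or 3, with limma adjusted p-values of 0.0606 to 0.0932. When all probe sets were tested, its 2 others gave 0.61 ± 0.19 (limma adjusted p = 0.0599) and 0.56 ± 0.18 (adjusted p = 0.0626) there, and neither passed. In ventricle over control atrium they gave -1.22 ± 0.19 (adjusted p = 0.000625) and -0.44 ± 0.18 (adjusted p = 0.0639). Both were called higher in mutant atrium than in ventricle.

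Col12a1, the close relative of Col14a1, had 6.29, 6.27 and 6.27 in mutant atria, 6.26, 6.29 and 6.47 in ventricles and 6.05, 6.03 and 6.32 in control atria. It passed in no comparison, with 0.14 ± 0.09 (adjusted p = 0.297) in mutant over control atrium and 0.21 ± 0.09 (adjusted p = 0.0781) in ventricle over control atrium. Col16a1, a FACIT linked to microfibrils, was lower in the ventricle than in the control atrium with a log2 difference of -0.38 ± 0.07 (adjusted p = 0.002), and Col20a1 was higher by 0.44 ± 0.09 (adjusted p = 0.00318). Col22a1, a collagen of muscle and tendon junctions, was higher by 0.27 ± 0.09 (adjusted p = 0.0258), at levels near the olfactory receptor range. That call was kept in 12 of 21 settings, and lost without control atrium replicate 1 or 2 or ventricle replicate 1 or 2 (limma adjusted p of 0.0597 to 0.0936). Col19a1 and the cartilage chains Col9a1 and Col9a2 lay within that range in all groups, and Col9a3 just above it, and these 4 passed in no comparison.

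**Figure D3:**
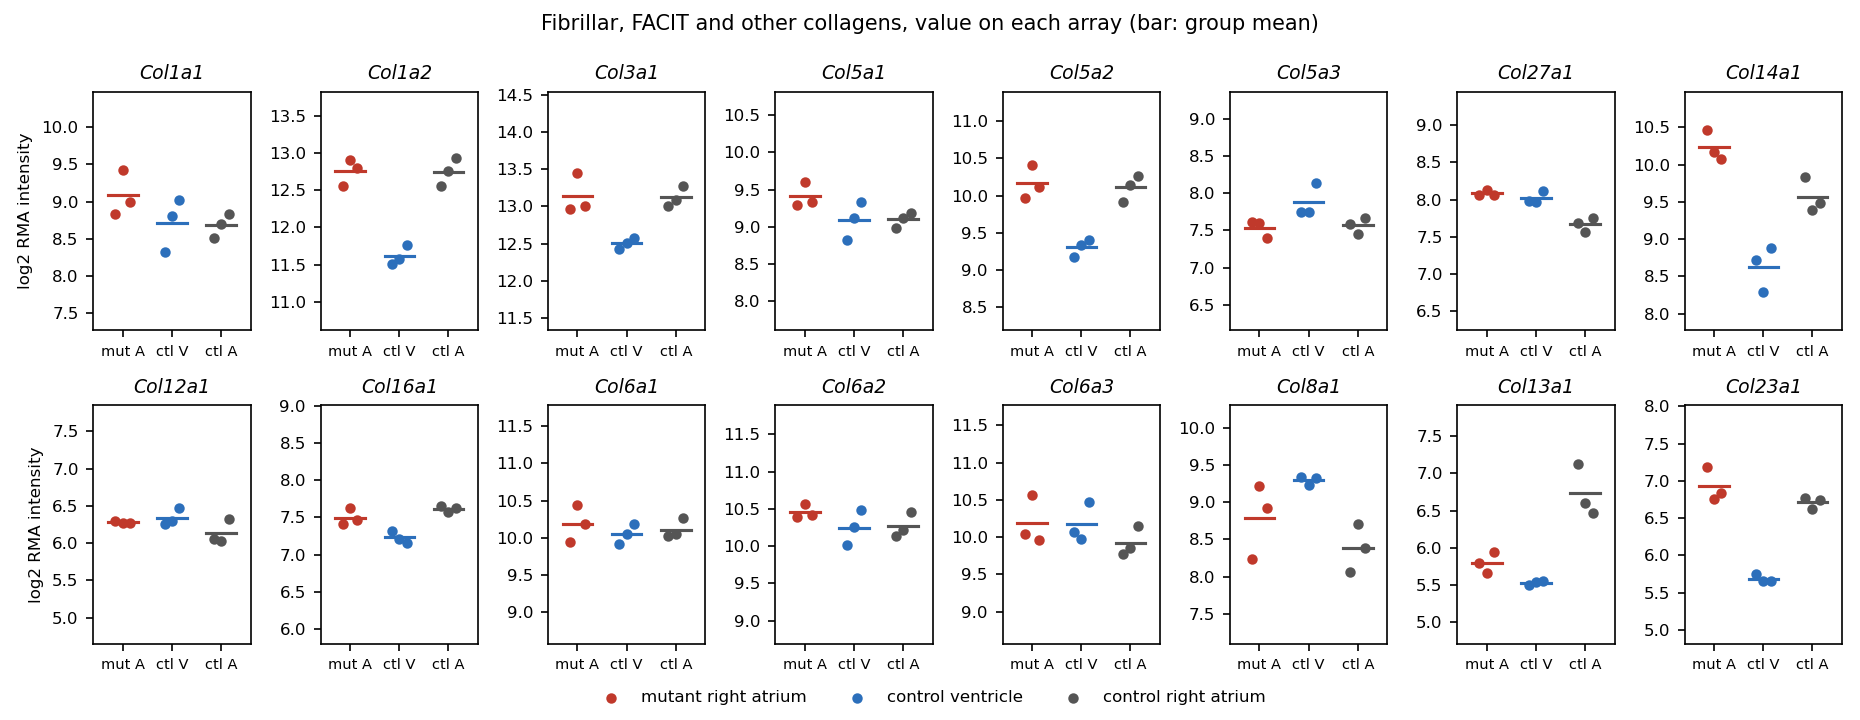
Log2 RMA intensity of 16 fibrillar, FACIT and other collagens on each array (points) with the group mean (bar), for mutant right atrium, control ventricle and control right atrium, every panel spanning the same log2 range. Ventricles lie lowest for Col1a2, Col3a1, Col5a2, Col14a1 and Col23a1 and highest for Col8a1, and control atria lie alone above both other groups for Col13a1.

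The remaining class of 14 genes had 1 rise (7.76% of all genes) and 1 fall (9.79%) in mutant over control atrium, with a median of 0.18. It had 4 higher (29.2% of all genes) and 2 lower (23.6%) in ventricle over control atrium, with a median of 0.17. Type VI collagen, whose beaded filaments tie cells to the fibrils, passed in no comparison for its 3 main chains. Col6a1 had 9.95, 10.44 and 10.18 in mutant atria, 9.92, 10.05 and 10.19 in ventricles and 10.02, 10.05 and 10.26 in control atria. Col6a2 had 10.39, 10.57 and 10.42 in mutant atria, 10.01, 10.25 and 10.48 in ventricles and 10.13, 10.22 and 10.46 in control atria. Col6a3 had 10.04, 10.57 and 9.96 in mutant atria, 10.07, 9.97 and 10.47 in ventricles and 9.77, 9.86 and 10.15 in control atria. The groups overlapped for all 3 chains. Their differences were 0.08, 0.19 and 0.26 in mutant over control atrium and -0.06, -0.02 and 0.24 in ventricle over control atrium, with SEs of 0.13 to 0.18. With the Actb covariate the ventricle difference of Col6a3 changed sign (-0.35, limma adjusted p = 0.0355).

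Col8a1, a network collagen of vessel walls, was higher in the ventricle. It had 8.24, 9.21 and 8.92 in mutant atria, 9.34, 9.23 and 9.32 in ventricles and 8.06, 8.71 and 8.38 in control atria. The ventricles lay above all atria and close together, while the atrial groups were spread wide and overlapped. The ventricle exceeded the control atrium by 0.91 ± 0.23 (adjusted p = 0.00876). The mutant atrium differed from the control atrium by 0.41 ± 0.23 (adjusted p = 0.251) and from the ventricle with a log2 difference of -0.50 ± 0.23 (adjusted p = 0.122). Mutant replicate 1, with a low Y-linked level, was the lowest mutant array, and without it the mutant difference from control atria was 0.68 (limma adjusted p = 0.0299). With the Y-linked covariate it was 0.46 (adjusted p = 0.0138), and the difference from ventricles was -1.03 (adjusted p = 0.000606).

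The transmembrane collagens Col13a1 and Col23a1 were both lower in the ventricle, and Col13a1 also in the mutant atria. Col13a1, known from the junction of nerve and muscle, had 5.80, 5.66 and 5.94 in mutant atria, 5.50, 5.54 and 5.55 in ventricles and 7.13, 6.60 and 6.47 in control atria. All control atria lay above all other arrays, and the mutant and ventricle means lay within the olfactory receptor range, so the folds against them may be too small. It fell by 0.93 ± 0.15 (adjusted p = 0.00309) in mutant over control atrium and was lower with a log2 difference of -1.21 ± 0.15 (adjusted p = 0.000154) in ventricle over control atrium. Over the control atria Col13a1 had the same order as the mean of the hepatocyte genes (10.27, 9.49 and 7.68), with replicate 1 highest in both. With the hepatocyte covariate the mutant difference was -0.15 (limma adjusted p = 0.923). Without control atrium replicate 1 the call was kept, but the remaining control atria also held liver transcripts. The part of liver RNA in this difference was not tested. Col23a1 had 7.18, 6.76 and 6.84 in mutant atria, 5.75, 5.65 and 5.66 in ventricles and 6.77, 6.62 and 6.74 in control atria. Ventricles lay below all atria, with a mean within the olfactory receptor range, with a log2 difference of -1.03 ± 0.10 (adjusted p = 4.25e-05) against control atria, and mutant atria exceeded ventricles by 1.25 ± 0.10 (adjusted p = 2.6e-05). Its 2 other probe sets differed more, with a log2 difference of -1.89 ± 0.19 and -1.95 ± 0.18 in ventricle over control atrium.

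Col26a1 had 5.26, 5.18 and 5.32 in mutant atria, 5.49, 5.81 and 5.81 in ventricles and 4.80, 4.91 and 5.24 in control atria. It was higher in the ventricle than in the control atrium by 0.72 ± 0.12 (adjusted p = 0.00111), with all group means within the olfactory receptor range. Col6a5 was called higher there by 0.36 ± 0.09 (adjusted p = 0.00828) and Col6a4 by 0.29 ± 0.11 (adjusted p = 0.0436), in the same range. The Col6a4 calls were kept in 11 of 21 settings here and in 9 of 21 in mutant over control atrium, each lost in 5 of the 9 fits that leave out an array. Col25a1, a transmembrane collagen of neurons and muscle, did not pass with its used probe set in either comparison with control atria. Its other probe set was called lower in both, with a log2 difference of -0.89 ± 0.17 (adjusted p = 0.00774) in the mutant atrium and -1.24 ± 0.17 (adjusted p = 0.000271) in the ventricle, with all group means within the olfactory receptor range. Col8a2 was called higher in mutant atrium than in ventricle by 0.40 ± 0.13 (adjusted p = 0.0404), in the same range, a call kept in 9 of 21 settings and lost in 6 of the 9 fits that leave out an array. Col7a1, the anchoring fibril collagen of skin, Col10a1 of growth plate cartilage and Col17a1 of epithelial attachment passed in no comparison, and the last 2 lay within the range in all groups.

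Of the 27 collagens with several probe sets, 17 had at least 2 above the olfactory receptor range. Tested as single probe sets, all of a gene's had the same call for 14 of the 17 in mutant over control atrium, 12 in ventricle over control atrium and 15 in mutant atrium over ventricle. Calls differed for Col14a1, Col27a1 and Col4a4 in the first, for these with Col1a1 and Col4a3 in the second, and for Col1a1 and Col27a1 in the last. Both probe sets of Col4a1, both of Col3a1 and the 2 brighter ones of Col8a1 differed from each other by at most 0.08 in each comparison with control atria. The 2 brighter probe sets of Col4a4 gave 0.54 and 0.48 in mutant over control atrium, and the third 0.27 ± 0.11 (adjusted p = 0.125), with -0.15 ± 0.11 (adjusted p = 0.246) in ventricle over control atrium. For Col4a6 the other probe set was lower in the ventricle by less, -0.24 ± 0.07 (adjusted p = 0.0201). For Col4a3 the second probe set had the mutant rise (0.49 ± 0.12, adjusted p = 0.0217) but not the ventricle difference (-0.04 ± 0.12, adjusted p = 0.779). Col1a2 ranged over its 3 probe sets between -0.56 and -1.83 in ventricle over control atrium, all called lower.

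**Figure D4:**
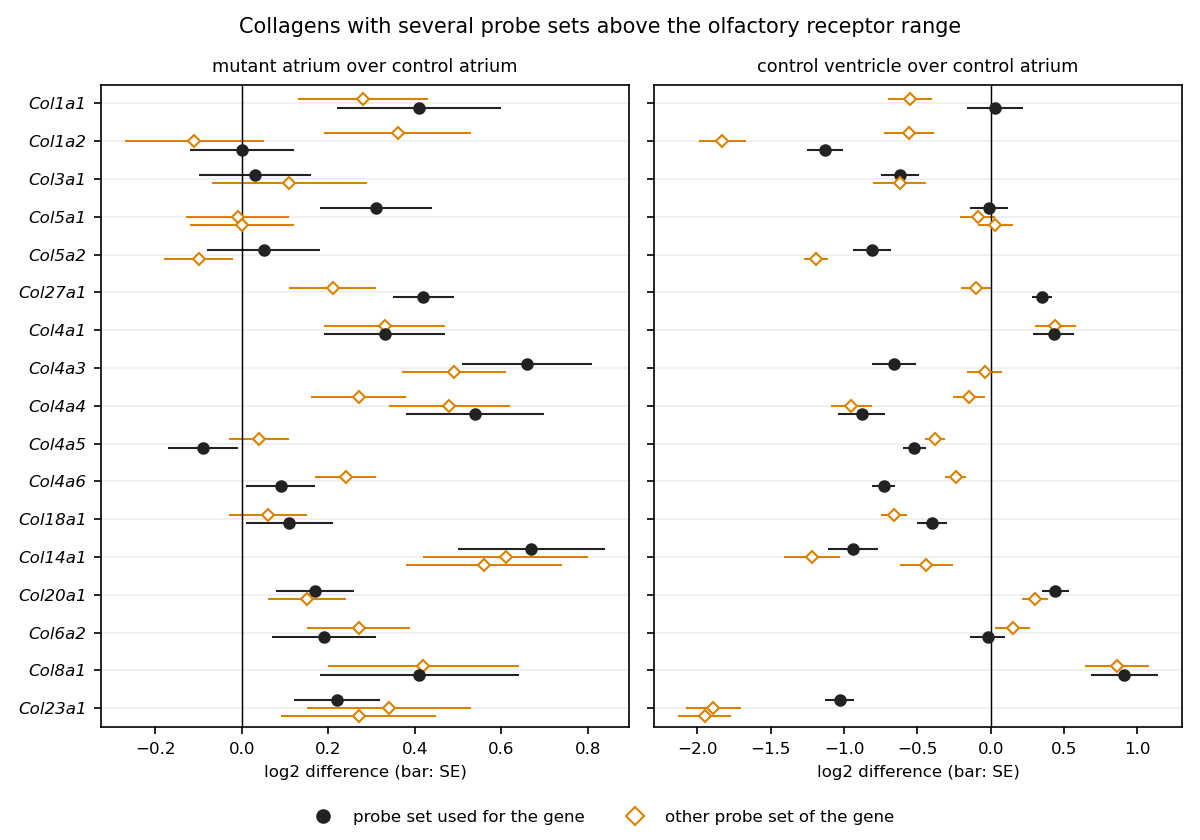
Log2 difference (points) and its SE (bars, 3 arrays per group) of 39 probe sets of 17 collagen genes with several probe sets above the olfactory receptor range. Black circles mark the probe set used for the gene and open diamonds the others, which lie apart in ventricle over control atrium for Col1a1, Col1a2, Col27a1, Col4a3 and Col23a1.

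Within a group the collagens tended to be high on the same array. Of the 29 collagens above the olfactory receptor range in some group, 16 were highest on mutant replicate 2 among mutant arrays (29.7% of all genes were). Likewise 22 were highest on ventricle replicate 3 (34.8% of all genes) and 19 on control atrium replicate 3 (36.4%). In the mutant atria Col1a1, Col1a2, Col3a1, Col5a2, Col4a1 and Col6a1 were highest on replicate 2 and lowest on replicate 1. Col4a3, Col4a4, Col14a1 and Col23a1 were highest on replicate 1.

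The genes that act on collagen chains were set beside them as lists written from textbook knowledge. Their counts stand against 7.76% of all genes higher and 9.79% lower in mutant over control atrium, 29.2% and 23.6% in ventricle over control atrium, and 16% and 16.7% in mutant atrium over ventricle. For hydroxylation, folding and export of the chains, 3 of 20 measured genes rose and 5 fell in mutant over control atrium (7.76% and 9.79% of all genes, median -0.07). P3h4 and P3h1, of the prolyl 3-hydroxylase family, fell, with -0.69 ± 0.08 and -0.67 ± 0.12. The prolyl isomerase Fkbp14 fell with -0.48 ± 0.07, while P3h3, of the same family as P3h1, rose by 0.45 ± 0.08 (limma adjusted p of at most 0.00674 for each of these genes). The ventricle over control atrium had 1 higher and 15 lower (29.2% and 23.6% of all genes, median -0.49), among them P4hb, a subunit of prolyl hydroxylase, with -0.84 ± 0.08, Creb3l1, a membrane-bound transcription factor of collagen secreting cells, with -1.01 ± 0.11, Fkbp14 with -0.75 ± 0.07 and P3h3 with -0.72 ± 0.08. Mutant atria against ventricles had 12 higher and 2 lower (median 0.31).

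For propeptide removal and crosslinking, 2 of 10 genes rose and none fell in mutant over control atrium (7.76% and 9.79% of all genes, median 0.17). Both make crosslinking oxidases, Lox with 0.74 ± 0.19 (limma adjusted p = 0.0243) and Loxl3 with 0.36 ± 0.07 (adjusted p = 0.0084). Of these genes, 1 was higher and 6 lower in ventricle over control atrium (29.2% and 23.6% of all genes, median -0.73), with Pcolce2 and Pcolce, enhancers of propeptide cleavage, at -1.10 ± 0.11 and -0.94 ± 0.10 and Loxl1 at -0.86 ± 0.10. In mutant atrium over ventricle 5 were higher and 1 lower (median 0.46). Lox was higher there by 1.47 ± 0.19.

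Among 17 partners of fibrils 3 rose and 2 fell in mutant over control atrium (7.76% and 9.79% of all genes, median 0.18). The small proteoglycans Ogn and Lum rose by 0.55 ± 0.08 and 0.40 ± 0.10 and the elastic fibre protein Emilin1 by 0.58 ± 0.11, while fibromodulin (Fmod) fell by 1.38 ± 0.31 (limma adjusted p of at most 0.0234). In ventricle over control atrium 2 were higher and 12 lower (29.2% and 23.6% of all genes, median -0.55). Comp, a matrix protein of cartilage and tendon, was lower with -3.91 ± 0.24, Fmod with -3.65 ± 0.31, biglycan (Bgn) with -1.44 ± 0.08 and decorin (Dcn) with -0.73 ± 0.06. Against ventricles, 13 were higher and 1 lower in mutant atria (median 0.75).

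Of 11 basement membrane partners 1 rose in mutant over control atrium, the proteoglycan perlecan (Hspg2, 0.34 ± 0.08, limma adjusted p = 0.0222). In ventricle over control atrium 2 were higher, the laminin chain Lama5 by 1.28 ± 0.12 and Hspg2 by 0.36 ± 0.08, and 3 lower, among them nidogen Nid2 with -0.64 ± 0.09 and Lama4 with -0.43 ± 0.10. In mutant atrium over ventricle 5 were higher and 1 lower. Of 9 collagen receptors 1 fell in mutant over control atrium, the receptor kinase Ddr1, with -0.63 ± 0.10 (adjusted p = 0.00269), and in ventricle over control atrium 1 was higher and 3 lower, with Ddr1 at -1.39 ± 0.10 and the uptake receptor Mrc2 at -0.53 ± 0.10. In mutant atrium over ventricle 2 were higher. Of 7 genes of collagen breakdown 2 rose in mutant over control atrium, cathepsin K (Ctsk, 0.62 ± 0.10) and the gelatinase Mmp2 (0.60 ± 0.11). In ventricle over control atrium 2 were higher and 2 lower, with the surface protease Fap at 1.97 ± 0.18 and Ctsk at -0.79 ± 0.10. In mutant atrium over ventricle 3 were higher and 1 lower.

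Markers of the cells that make collagen also moved with the groups. The fibroblast markers Dcn, Lum and Dpt were also counted among the fibril partners and Ddr2 among the collagen receptors, so these lists are not separate. Of 10 fibroblast markers 3 rose (7.76% of all genes) and none fell (9.79%) in mutant over control atrium. In the ventricle against the control atrium 1 was higher (29.2% of all genes) and 7 lower (23.6%). Their summed intensity was 44500 to 47500 in mutant atria, 23200 to 25200 in ventricles and 37300 to 41300 in control atria. The 11 smooth muscle and pericyte markers summed to 17700 to 19300 in mutant atria, 25700 to 30300 in ventricles and 10700 to 12000 in control atria, and the 10 endothelial markers to 10600 to 11800 in mutant atria, 8330 to 9420 in ventricles and 12500 to 13600 in control atria. Sums weigh the brightest genes most. In mutant over control atrium 6 smooth muscle and pericyte markers rose and 1 fell, at -3.38 (7.76% and 9.79% of all genes). There 0 endothelial markers rose and 2 fell. In ventricle over control atrium the counts, in that order, were 8 higher and 2 lower, and 1 higher and 5 lower (29.2% and 23.6%). In mutant atrium over ventricle they were 1 higher and 5 lower, and 3 higher and 0 lower (16% and 16.7%). The endothelial median was 0 there. The 11 mesothelial markers all fell in the mutant atria and were all lower in the ventricles, with sums of 4980 to 6510 in mutant atria, 1420 to 1820 in ventricles and 12300 to 14800 in control atria. The 10 hepatocyte markers, all lower in both comparisons with control atria, summed to 663 to 783 in mutant atria, 437 to 464 in ventricles and 3140 to 17600 in control atria, with 8 of the 10 within the olfactory receptor range in mutant atria and in ventricles.

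The 6 macrophage markers had 3 rises in mutant over control atrium (7.76% of all genes) and 3 lower genes in ventricle over control atrium (23.6% of all genes), with sums of 14200 to 19000 in mutant atria, 6430 to 9580 in ventricles and 12300 to 13300 in control atria. Of the 8 cartilage and tendon markers, 5 lay within the olfactory receptor range in mutant atria, 6 in ventricles and 5 in control atria. The 4 measured Schwann cell markers summed to 787 to 871 in mutant atria, 477 to 592 in ventricles and 1110 to 1200 in control atria, and the 4 adipocyte markers to 163 to 189 in mutant atria, 183 to 257 in ventricles and 203 to 523 in control atria. In mutant over control atrium 0 Schwann markers rose and 1 fell (7.76% and 9.79% of all genes), at -1.02. The other Schwann markers lay above 0, and the list median was 0.16. Of the adipocyte markers 0 rose and 1 fell there, with a median of -0.29 and a lowest difference of -2.45. The 6 cardiomyocyte markers summed to 149000 to 152000 in mutant atria, 150000 to 153000 in ventricles and 139000 to 143000 in control atria. The 5 atrial muscle markers summed to 66900 to 93300 in mutant atria, 6040 to 9300 in ventricles and 131000 to 133000 in control atria, and the 3 ventricular ones to 50600 to 57800 in mutant atria, 62500 to 63800 in ventricles and 5000 to 6780 in control atria. Of the atrial markers 1 of 5 in ventricles, and of the ventricular ones 1 of 3 in control atria, lay within the olfactory receptor range. The 3' to 5' difference of Actb, which reflects RNA integrity, was 1.28 to 1.38 in mutant atria, 1.26 to 1.37 in ventricles and 1.39 to 1.49 in control atria. The part of these markers in the collagen results was not tested. Hepatocyte, Y-linked and Actb levels differed between the groups, so fits with them as covariates cannot tell their part from that of group.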

How the data were processed

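RNA of 9 mouse heart samples was measured on Affymetrix arrays of 45101 probe sets. The deposited table holds intensity values on a linear scale, normalised by the authors with RMA, per the submitters' processing notes, and log2 was taken here. After control probe sets (64), those of several genes (932) and those without a gene name (9160) were left out, 34945 probe sets of 18193 genes remained. One limma fit (version 3.58.1, R 4.3.3) of the 3 groups gave the 3 comparisons, with Benjamini-Hochberg adjustment and a threshold of 0.05, and was tested on simulated data. The number of arrays, 3 per group, limits the precision. The p-values set a difference against the spread between arrays within groups, pooled over the groups and moderated across genes. Where an array held RNA of several animals, that is not the spread between animals. The members and lists were chosen with earlier results of these data known. Values per array were given for a set of 16 collagens and for any other past the threshold with a log2 difference of at least 0.5, and for Col27a1, added after its values were seen, and up to 4 genes with the smallest p per pathway list and comparison were named. The labels do not say that replicate numbers pair samples, so numbers were not taken as pairs. Same-numbered samples deviated together in 1 of 9 pairs (r over 0.1, at 0.12). Samples of unlike number reached 0.15, so these correlations cannot decide whether samples were paired. Alternatives changed the probe set rule, normalisation, filter, variance model, covariates, block, threshold and arrays used. Upstream sequences came from RefSeq (GRCm38.p6).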

Additional observations from a re-analysis of the deposited data

How the results depend on the processing

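Of the calls against control atria, none of 6 in the mutant and 2 of 22 in the ventricle held under every alternative fit, and of those between mutant atrium and ventricle 10 of 16 did. These counts are not alike, since leaving out control atria cannot change the difference between mutant atrium and ventricle. The hepatocyte level also differed little between these groups, with means of 5.53 and 5.36. The cause of a change was not tested, also where a covariate or fewer arrays were used. In mutant over control atrium the number of higher collagens was 3 in the fit of 2 groups, 9 with array weights, 8 with the Y-linked covariate, 2 at 1.5-fold or more, 1 at an adjusted p of 0.01, and 0 with the hepatocyte covariate, the Actb covariate or control atrium replicate 3 as the lone control atrium, an alternative chosen after seeing the data in which that sample is assumed to vary like the others. It ranged between 2 and 6 when single arrays were left out. The number lower was 0 without the dimmest 40% of genes and with the hepatocyte or Actb covariate. Over all genes these covariates left 68 and 895 calls there, against 3192 with neither. In ventricle over control atrium the number higher was 6 without the dimmest genes and at an adjusted p of 0.01, 0 with the hepatocyte and 1 with the Actb covariate, 2 with the lone control atrium, 3 at 1.5-fold, and 6 to 13 without single arrays. The number lower was 2 with the hepatocyte covariate. In mutant atrium over ventricle the number lower was 2 with probe sets averaged, no dim genes, the 2 groups alone or the replicate block. It was also 2 when all probe sets were fitted and adjusted together, a setting that still read only the used probe set of each gene. It was 1 with the Actb covariate, 0 at 1.5-fold or an adjusted p of 0.01, and 1 to 3 without single arrays. The replicate block moved no other count by over 1.5 times.

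Median log2 differences moved as follows. With the hepatocyte covariate, in mutant over control atrium, they were -0.21 (fibrillar), 0.18 (basement membrane), -0.11 (FACIT) and -0.18 (other), and in ventricle over control atrium -0.28, -0.23, -0.06 and -0.24. With the Actb covariate they were 0.10 (basement membrane) and 0.08 (other) in mutant, and -0.54 (basement membrane), 0.22 (FACIT) and 0.03 (other) in ventricle over control atrium. With the lone control atrium they were -0.07, 0.16, 0 and 0.03 in the mutant, and -0.35 (basement membrane), 0.07 (FACIT) and 0 (other) in the ventricle. The mean of all probe sets gave 0.03 (FACIT, mutant), 0.07 (FACIT, ventricle) and 0.10 (other, ventricle). Quantile normalisation gave 0.07 (FACIT, mutant), -0.36 (basement membrane, ventricle), 0.07 (FACIT, ventricle) and 0.07 (other, ventricle). Without dim genes the values were -0.38 (FACIT) and 0.08 (other) in ventricle over control atrium, and 0.38 (fibrillar) and 0.26 (FACIT) in mutant atrium over ventricle. Type IV alone gave -0.59 in ventricle over control atrium and 0.63 in mutant atrium over ventricle, where the Y-linked covariate gave -0.06 (other). Without single arrays the median ranged from 0.21 to 0.41 (basement membrane) and from 0.04 to 0.18 (FACIT) in the mutant, from 0.12 to 0.22 (FACIT) and 0.11 to 0.23 (other) in the ventricle, and from -0.13 to -0.05 (FACIT) and -0.01 to 0.10 (other) in mutant atrium over ventricle.

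With the hepatocyte covariate 18 of 42 collagens changed sign in mutant over control atrium and 13 in ventricle over control atrium, and with the Actb covariate 7 in mutant over control atrium. Among those called with or without the hepatocyte covariate these were Col6a4 in mutant over control atrium (-0.02) and Col22a1 (-0.06), Col4a1 (-0.14) and Col6a4 (-0.13) in ventricle over control atrium. There Col25a1 had -0.53 with the mean of all probe sets and Col6a3 had -0.35 with the Actb covariate. Signal over background limits the 13 collagens within the olfactory receptor range, whose differences may be too small.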
